A study of Mus musculus with 20 samples.

Results

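Whether the androgen oxymetholone acted differently on blood stem and progenitor cells with and without Fancd2 was examined in 12 of the 20 RNA sequencing libraries of the study. The cells were KSL cells, sorted as cKit+ Sca1+ Lin- in 2 rounds, and each library came from a pool of 5 male mice of strain 129S4 aged 4 months. The 4 groups of 3 libraries were Fancd2-/- mice on oxymetholone, Fancd2-/- mice on placebo, wild-type mice on oxymetholone and wild-type mice on placebo. Oxymetholone was fed at 300.0 mg per kg of diet for 3 months after weaning. The oxymetholone and placebo libraries formed 6 pairs, 3 in each genotype, that shared a flow cytometer setting within the pair. For each gene, the pair value is the log2 CPM (counts scaled to library size) of the oxymetholone library minus that of its placebo partner. The genes described are those whose 3 Fancd2-/- pair values all lay above, or all below, the 3 wild-type pair values. There were 1160 such genes among 13259 tested, which is 8.75% of them. Unrelated pair values also fall apart in this way for some genes. Whether 1160 exceeds the number they would give was not tested, so the count is not one of genes shown to respond differently.

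The protein made by Fancd2 is a central member of the Fanconi anemia pathway, which repairs DNA crosslinks, and its loss is linked to failure of the bone marrow. Oxymetholone is a synthetic androgen that has long been given to patients with Fanconi anemia to raise blood counts. Most long-term stem cells of the marrow are quiescent, held there in part by inhibitors of cyclin-dependent kinases, while the progenitors that share the KSL gate divide often. Genes of mitosis are transcribed late in the cell cycle, and many of their promoters carry CCAAT boxes together with a cell cycle homology region, a short element with the letters TTTGAA or TTTAAA. In RNA from a sorted pool, fewer cells of a type and less RNA per cell cannot be told apart.

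Fancd2 itself was read at 6.59 to 8.73 CPM in the 6 Fancd2-/- libraries and at 16.8 to 23.5 CPM in the 6 wild-type libraries, so the genotypes did not overlap. The labels do not say which part of the gene was removed. Spp1, which encodes osteopontin and is named in the title of the study, was read at 561 CPM in the Fancd2-/- placebo library of pair 3 and at 5.52 to 34.2 CPM in the other 11. Its pair values were 0.27, -0.10 and -6.66 in Fancd2-/- and -2.09, 0.20 and 0.43 in wild-type cells, with a difference of -1.12 ± 2.59 and of 0.62 without Fancd2-/- pair 3, so Spp1 overlapped. The libraries held between 10777293 and 121347117 counts. The same Fancd2-/- placebo library of pair 3 stood apart from the other 11 on the first principal component, at 66.85 against -23.48 to 4.476. Its log2 levels also followed transcript length with a slope of -0.186, against -0.043 to 0.103 in the others. Ddx3y, a Y-linked gene that male cells use, was at 25.4 CPM in it and at 43.3 to 101.0 CPM in the others. The wild-type placebo library of pair 1 came next on both measures, with a slope of -0.043 and Ddx3y at 43.3 CPM. Many values are given with and without Fancd2-/- pair 3. Kit and Ly6a, the genes of the sort markers cKit and Sca1, were detected. So were Ptprc, Cd34, Flt3, Slamf1 and Cd48, which are not part of the sort as described. Together these genes reached 2770 to 3260 CPM in the 12 libraries, a sum that does not check the sort.

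No gene passed the test of the difference between the genotypes. With edgeR's quasi-likelihood test and Benjamini-Hochberg adjustment, 0 of 13259 genes (0.0%) had an adjusted p under 0.05, and the smallest adjusted p was 0.953. An unadjusted p under 0.05 was found for 457 genes (3.45%). DESeq2 called 1 gene (0.00754%), Ctsg, at an adjusted p of 0.00962, and limma voom called 0. Oxymetholone by itself gave 0 calls with edgeR in either genotype, with an unadjusted p under 0.05 for 903 genes (6.81%) in Fancd2-/- cells and for 357 genes (2.69%) in wild-type cells. Of the genes with pair values that did not overlap, 582 (4.39%) were higher in the Fancd2-/- pairs and 578 (4.36%) were lower. On the authors' scaled matrix the split was 695 higher and 443 lower. In 158 genes (1.19%) all Fancd2-/- pair values were above 0 and all wild-type values below 0, and in 185 genes (1.4%) the signs were the other way round. The pair values chose the genes, so the edgeR p-values of the genes below, which come from the same libraries, order them and do not support them.

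The 2 sets differed in median level and transcript length. Genes lower in the Fancd2-/- pairs had a median level of 55.0 CPM and a median transcript length of 2460 bases. Genes higher in those pairs had a median level of 18.2 CPM and a median length of 3185 bases, against 38.3 CPM and 2803 bases over all genes tested. Fancd2-/- pair 3 was the Fancd2-/- pair farthest from the wild-type values in 369 (63.8%) of the lower genes and in 323 (55.5%) of the higher genes. The same share over all genes was not computed, so these shares cannot be read as a trait of the 2 sets. On the first principal component of the pair changes over all genes tested, that pair lay at 70.27, against -26.32 to -5.571 in the others. Its placebo library had the length slope of -0.186 given above, and the part of that slope in the lengths of the 2 sets was not tested. With at least 10 CPM on average, 454 lower and 365 higher genes were left. Without Fancd2-/- pair 3, when only 2 pairs had to lie apart from the 3 wild-type pairs, 1071 genes (8.08%) were higher and 1073 (8.09%) lower.

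Mitosis genes made up the group with the clearest contrast between the genotypes. All 34 genes of a G2/M and mitosis list had a difference below 0, that is, a lower oxymetholone change in Fancd2-/- than in wild-type cells, against 49.5% of all genes. The pair values of 19 of them (55.9%) were lower in Fancd2-/- without overlap, against 4.36% of all genes, and none was higher. The median difference was -0.50 on the log2 scale, against 0.004 over all genes. Without Fancd2-/- pair 3 the median was -0.43 and 21 of the 34 (61.8%) were lower without overlap, against 8.09% of all genes. In the wild-type pairs the median change with oxymetholone was 0.51, 0.14 and 0.33, with 34, 31 and 34 of the 34 genes above 0. In the Fancd2-/- pairs it was -0.04, -0.20 and -0.38, with 16, 11 and 6 genes above 0. The members of a list were read in the same 3 pairs per genotype and are not separate observations. This list and those below were chosen with earlier results of these data known, so their shares describe the data and are no independent support.

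The levels behind these changes show where the groups started. Relative to the mean of the 12 libraries, the median mitosis gene stood at -0.60, -0.23 and -0.30 in the wild-type placebo libraries and at -0.14, -0.12 and 0.03 in the wild-type oxymetholone libraries, in log2 CPM. In Fancd2-/- cells the values were 0.07, 0.41 and 0.45 on placebo and 0.08, 0.24 and 0.13 on oxymetholone. On placebo the genotypes were thus farther apart, with means of 0.31 ± 0.21 and -0.38 ± 0.20 (SD, n = 3), than on oxymetholone, with 0.15 ± 0.08 and -0.08 ± 0.09. Every Fancd2-/- library was above every wild-type library on the same diet.

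**Figure D1:**
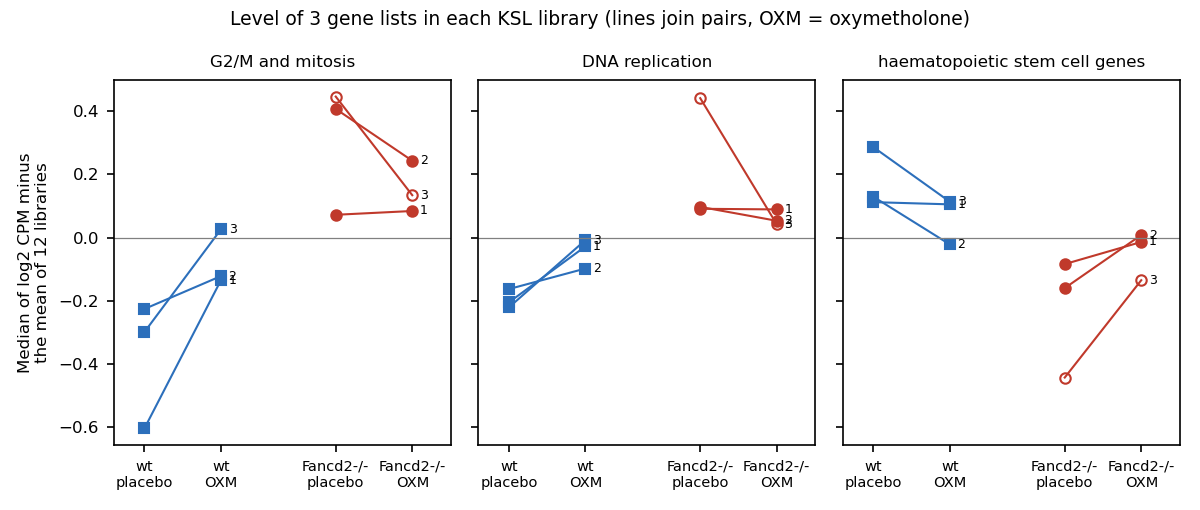
Median level of 3 gene lists in each KSL library, as log2 CPM minus the mean of the 12 libraries, with lines joining the placebo and oxymetholone library of a pair (squares, wild-type, circles, Fancd2-/-, open circle, Fancd2-/- pair 3). The mitosis list goes up in each wild-type pair, from at most -0.226 on placebo to at least -0.135 on oxymetholone, while in Fancd2-/- cells pair 1 is nearly level at 0.072 and 0.084 and pairs 2 and 3 go down.

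Cell cycle promoter elements were read in the mitosis genes because these genes moved together. RefSeq promoter sequence (GRCm38.p6) was found for 29 of the 34 genes, giving 30 promoters. Within the 250 bases before the start, CCAAT on either strand was present in 76.7% of the 30 promoters, against 33.8% of all 32851 promoters of the same length. TTTGAA or TTTAAA on either strand was present in 15 of the 30, against 25.2% of all promoters, and both elements together in 43.3%, against 8.78%. Of the 16 promoters of mitosis genes whose pair values did not overlap, 11 (68.8%) held TTTGAA or TTTAAA. Of the 14 promoters of the other members 4 (28.6%) did. CCAAT differed less, at 13 (81.2%) of the 16 and 10 (71.4%) of the 14. Prc1 has 2 of the 16 promoters. Mki67, whose pair values overlapped, holds 1 CCAAT and 2 TTTGAA in the 150 bases before the start. Whether the elements differ between the 2 sets was not tested. The counts are matches of letters and not shown sites. The 5 promoters below belong to genes whose pair values did not overlap, and each is the run of 150 bases that ends 1 base before the start, on the strand of the gene, with the letters of either element in capitals (ATTGG and TTCAAA are CCAAT and TTTGAA read on the other strand).
Ccnb1: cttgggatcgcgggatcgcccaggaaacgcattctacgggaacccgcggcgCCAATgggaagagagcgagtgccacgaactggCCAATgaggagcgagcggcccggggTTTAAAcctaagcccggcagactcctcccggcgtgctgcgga
Ube2c: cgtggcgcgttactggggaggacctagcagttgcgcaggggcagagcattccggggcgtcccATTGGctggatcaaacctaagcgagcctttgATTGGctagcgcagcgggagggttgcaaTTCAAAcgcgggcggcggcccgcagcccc
Cdc20: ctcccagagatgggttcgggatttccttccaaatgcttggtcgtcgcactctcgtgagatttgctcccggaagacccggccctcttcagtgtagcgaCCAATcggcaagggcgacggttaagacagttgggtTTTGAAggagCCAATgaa
Cenpa: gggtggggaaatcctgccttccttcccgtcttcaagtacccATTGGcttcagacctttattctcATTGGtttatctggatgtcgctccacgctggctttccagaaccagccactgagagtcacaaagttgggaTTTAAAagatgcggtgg
Kif2c: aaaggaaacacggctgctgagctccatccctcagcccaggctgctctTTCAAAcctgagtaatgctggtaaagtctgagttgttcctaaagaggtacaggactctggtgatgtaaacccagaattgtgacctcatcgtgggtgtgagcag

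The windows are chr13:100786487-100786636 on the minus strand for Ccnb1, chr2:164769779-164769928 on the plus strand for Ube2c, chr4:118437344-118437493 on the minus strand for Cdc20, chr5:30666736-30666885 on the plus strand for Cenpa and chr4:117178773-117178922 on the minus strand for Kif2c, all in GRCm38.p6. Ccnb1, Ube2c, Cdc20 and Cenpa each hold 2 CCAAT boxes upstream of or beside 1 TTTGAA or TTTAAA in the window, and Kif2c holds 1 TTTGAA and no CCAAT there. The printed promoters do not stand for all members without overlap. In the same window Ccnb2, Bub1b, Cenpe and Spc25, also without overlap, hold CCAAT and no TTTGAA or TTTAAA, and Ndc80 and Birc5 hold none of these letters.

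The engine of mitosis, the cyclins and kinases around CDK1, was represented by 8 genes, and the pair values of 6 did not overlap, with a median difference of -0.57. Ccnb1 (NM_172301, mm9 chr13:101548694-101556441) encodes cyclin B1, which activates CDK1 at entry into mitosis. It was at 18.0, 26.2 and 28.1 CPM in the wild-type placebo libraries of pairs 1 to 3 and at 29.7, 30.5 and 35.5 CPM in the libraries they were paired with. In Fancd2-/- cells the libraries gave 45.7, 49.0 and 56.9 CPM under placebo and 40.3, 43.4 and 36.0 CPM with the drug. Every wild-type pair was higher with the drug and every Fancd2-/- pair was lower, and the wild-type libraries on oxymetholone stayed below all Fancd2-/- libraries. The difference was -0.77 ± 0.20 (log2, SE), with an unadjusted p of 0.00224 and an adjusted p of 0.953 in edgeR.

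Ccna2 (cyclin A2), Cdk1 and Cdc25c (the phosphatase that switches CDK1 on) also moved in opposite ways, and Ccnb2 and Plk1 (a kinase that drives entry into mitosis) did not overlap. Ccnb2 pair values were 0.52, 0.19 and 0.32 in wild-type and 0.02, -0.34 and -0.39 in Fancd2-/- cells. Plk1 pair values were 0.47, 0.28 and 0.81 in wild-type and 0.26, -0.52 and -0.38 in Fancd2-/- cells. Cdk1 was at 134, 159 and 144 CPM under placebo and at 172, 170 and 166 CPM with the drug in wild-type cells, where each pair was higher with the drug. Cdk1 in Fancd2-/- cells was at 216, 230 and 352 CPM under placebo and at 209, 225 and 209 CPM with the drug, with pairs 1 and 2 nearly level and pair 3 much lower. Cdk1, Plk1, Ccna2, Cdc20, Bub1b and further members of the list lie outside the rule that picked Kif2c, Ube2c, Ccnb1 and Cenpa and were chosen after their values were seen, as were Procr, Esam, Hlf, Thy1, Mcm4, Rrm2, Cdkn1a, Cdkn1b and Mpo below.

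The 7 genes of the spindle checkpoint and the anaphase promoting complex had a median difference of -0.57. The pair values of 3 (42.9%) were lower without overlap, against 4.36% of all genes. Ube2c (NM_026785, mm9 chr2:164595429-164598402) encodes the ubiquitin-conjugating enzyme that works with that complex to destroy cyclins. It was at 48.8, 72.8 and 66.4 CPM under placebo and at 77.6, 82.6 and 95.9 CPM with the drug in wild-type cells. Fancd2-/- levels were 99.1, 154 and 167 CPM under placebo and 95.9, 119 and 120.0 CPM with the drug. All wild-type pairs were higher with the drug, and all Fancd2-/- pairs lower, although pair 1 by only -0.05. The difference was -0.76 ± 0.18, with an adjusted p of 0.953 in edgeR. Cdc20, the activator of that complex, had pair values of 0.24, 0.29 and 0.33 in wild-type cells and of 0.06, -0.49 and -0.42 in Fancd2-/- cells. Bub1b, a checkpoint kinase, gave 0.55, 0.22 and 0.26 against 0.06, -0.40 and -0.50.

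Of 7 centromere and kinetochore genes, the pair values of 5 (71.4%) were lower without overlap, against 4.36% of all genes. Their median difference was -0.56. Cenpa (NM_007681, mm9 chr5:30969275-30977199) encodes the histone H3 variant that marks centromeres. It was at 62.6, 80.3 and 77.0 CPM under placebo and at 86.8, 91.3 and 92.0 CPM with the drug in wild-type cells, and at 115, 140.0 and 149 CPM under placebo and 105, 117 and 113 CPM with the drug in Fancd2-/- cells. Its 3 wild-type pairs were higher with oxymetholone, its 3 Fancd2-/- pairs lower, and all Fancd2-/- libraries stayed above all wild-type ones. The difference was -0.57 ± 0.16, with an adjusted p of 0.953 in edgeR. Spc25, a part of the NDC80 complex, shows how narrow the rule can be: its highest Fancd2-/- pair value was 0.15 and its lowest wild-type value 0.18. Nuf2, another part of that complex, just missed it, with 0.13 in a Fancd2-/- pair and 0.09 in a wild-type pair.

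Of 12 spindle motors, kinases and chromosome proteins, the pair values of 5 (41.7%) were lower without overlap, against 4.36% of all genes. Their median difference was -0.45. Kif2c (NM_134471, mm9 chr4:116832241-116855229) encodes a kinesin that takes microtubules apart at kinetochores, and it had the third smallest p of all genes. It was at 33.4, 39.8 and 36.0 CPM under placebo and at 43.4, 48.1 and 52.9 CPM with the drug in wild-type cells, and at 46.9, 69.1 and 78.8 CPM under placebo and 37.5, 55.5 and 59.3 CPM with the drug in Fancd2-/- cells. The wild-type pair values were 0.38, 0.27 and 0.56 and the Fancd2-/- values -0.32, -0.32 and -0.41, so neither genotype had a pair that was level. The difference was -0.75 ± 0.16, with an unadjusted p of 0.000492 and an adjusted p of 0.953 in edgeR, and it was -0.70 to -0.83 with any 1 pair left out. Cenpf and Mki67, a kinetochore protein and the chromosome coat protein Ki-67, were exceptions: both were higher with oxymetholone in all 6 pairs. Mki67 pair values were 0.48, 0.31 and 0.62 in wild-type and 0.44, 0.28 and 0.50 in Fancd2-/- cells, with a difference of -0.07 ± 0.16. Cenpf gave 0.70, 0.29 and 0.73 against 0.48, 0.43 and 0.55, with a difference of -0.08 ± 0.17.

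**Figure D2:**
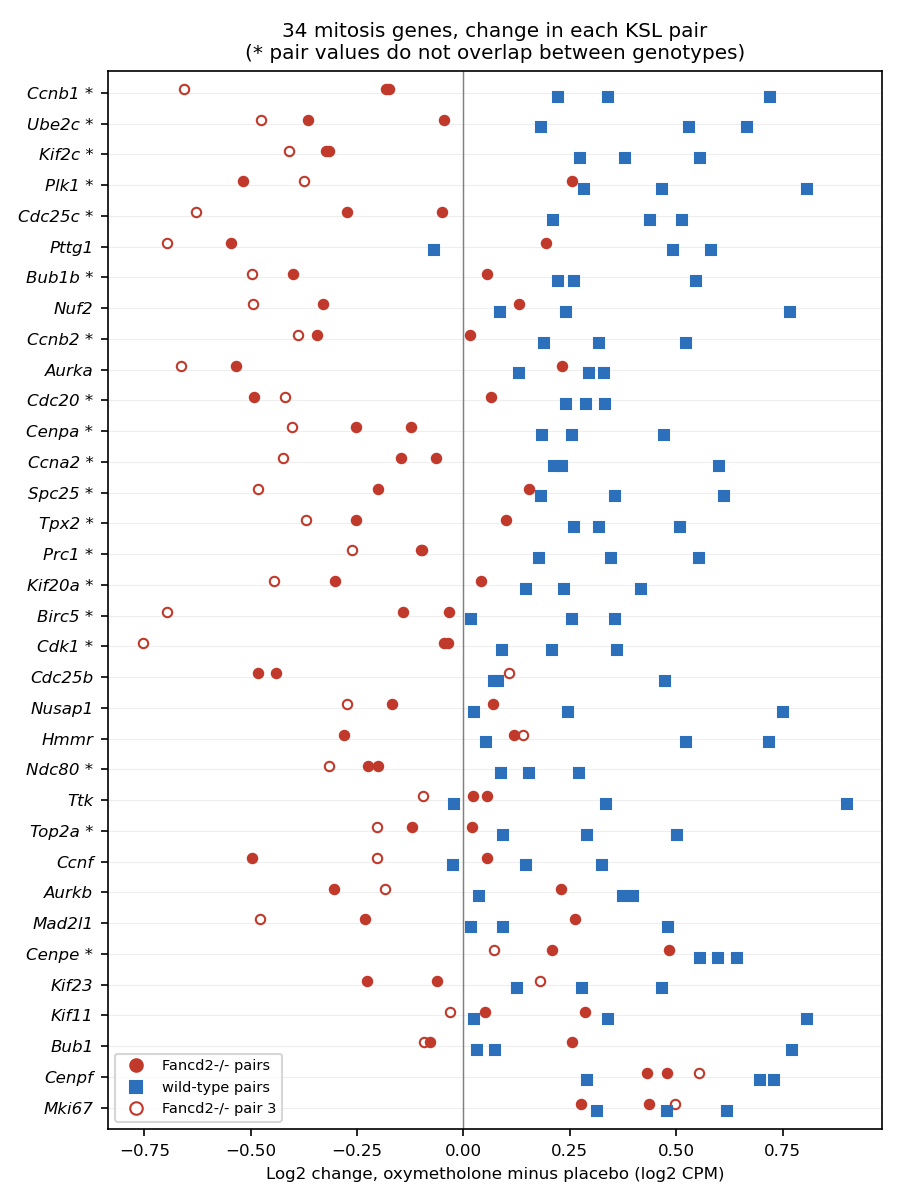
Log2 change with oxymetholone in each KSL pair for the 34 genes of the mitosis list, ordered by their difference between the genotypes (squares, wild-type pairs, circles, Fancd2-/- pairs, open circle, Fancd2-/- pair 3, asterisk, pair values that do not overlap). For Ccnb1, Ube2c and Kif2c the circles lie left of 0 and the squares right of it, while Cenpf and Mki67 at the bottom have all 6 values between 0.277 and 0.731.

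Some genes outside the list were also among the smallest p-values of the lower set or moved in opposite ways with no pair near 0. Arhgap19 had pair values of 0.52, 0.38 and 0.23 in wild-type and -0.07, -0.35 and -0.37 in Fancd2-/- cells. Cdca5 encodes sororin, which holds sister chromatids together, and gave 0.27, 0.13 and 0.21 against -0.16, -0.31 and -0.63. D2Ertd750e, listed by RefSeq as Knstrn, a kinetochore protein, gave 0.39, 0.12 and 0.24 against -0.23, -0.29 and -0.44. The differences were -0.65 ± 0.17, -0.57 ± 0.17 and -0.57 ± 0.16 in that order, each with an adjusted p of 0.953 in edgeR. Nup93 (NM_172410, mm9 chr8:96738501-96838966), a scaffold protein of the nuclear pore, was at 64.5, 71.0 and 66.0 CPM under placebo and at 77.2, 80.4 and 87.6 CPM with the drug in wild-type cells. Nup93 in Fancd2-/- cells was at 84.9, 94.4 and 122 CPM under placebo and at 64.5, 73.5 and 91.0 CPM with the drug. The sizes were alike within each genotype, with pair values of 0.26, 0.18 and 0.41 against -0.40, -0.36 and -0.43, and the difference was -0.68 ± 0.15 with an adjusted p of 0.953 in edgeR.

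DNA replication genes showed the same sign with a smaller size. All 29 genes of the list had a difference below 0, with a median of -0.28, and the pair values of 10 (34.5%) were lower in Fancd2-/- without overlap, against 4.36% of all genes. The median change was 0.17, 0.07 and 0.24 in the wild-type pairs and 0.03, -0.13 and -0.41 in the Fancd2-/- pairs. Without Fancd2-/- pair 3 the median difference was -0.18, with 10 of the 29 (34.5%) lower, against 8.09% of all genes. Origin licensing genes held 6 of the 10, among 11 members, fork and polymerase genes 2 of 12, and nucleotide supply genes 2 of 6.

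Mcm5 (NM_008566, mm9 chr8:77633427-77652338), a subunit of the replicative helicase, was at 486, 489 and 441 CPM under placebo and at 524, 517 and 538 CPM with the drug in wild-type cells. The Fancd2-/- libraries held 491, 586 and 875 CPM under placebo and 445, 484 and 618 CPM with the drug. Each wild-type pair was slightly higher with the drug, by 0.08 to 0.29 on the log2 scale, and each Fancd2-/- pair was lower, with values of -0.14, -0.28 and -0.50. The difference was -0.47 ± 0.16, with an adjusted p of 0.953 in edgeR. Mcm2, Mcm4 and Mcm6, further helicase subunits, and Gmnn, whose product geminin blocks relicensing, also did not overlap, with differences of -0.32 ± 0.15, -0.25 ± 0.16, -0.40 ± 0.18 and -0.49 ± 0.23. Pair 3 carried most of the last 2 values: without it they were -0.19 for Mcm6 and -0.20 for Gmnn. Rrm2, a subunit of the enzyme that makes deoxyribonucleotides, had pair values of 0.36, -0.08 and 0.12 in wild-type and -0.14, -0.15 and -0.11 in Fancd2-/- cells.

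Stem cell genes went the other way. Of 25 genes of a haematopoietic stem cell list, 23 had a difference above 0, against 50.5% of all genes, and the median was 0.29. The pair values of 7 (28.0%) were higher in Fancd2-/- without overlap, against 4.39% of all genes, and those of 1, Thy1, were lower. The median change was -0.09, -0.11 and -0.16 in the wild-type pairs and 0.01, 0.14 and 0.30 in the Fancd2-/- pairs. Without Fancd2-/- pair 3 the median difference was 0.15, with 9 of the 25 higher, against 8.08% of all genes. The levels again lay closer on oxymetholone: the median stem cell gene stood at 0.18 ± 0.10 in wild-type and -0.23 ± 0.19 in Fancd2-/- cells on placebo (log2 CPM relative to the mean of the 12 libraries, SD, n = 3), and at 0.07 ± 0.08 and -0.05 ± 0.08 on oxymetholone.

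Vwf (NM_011708, mm9 chr6:125502981-125636695) encodes von Willebrand factor, a platelet adhesion protein also found in stem cells that favour the platelet lineage. It was at 23.8, 23.3 and 23.3 CPM under placebo and at 14.6, 15.5 and 16.6 CPM with the drug in wild-type cells, so that the groups lay well apart. In Fancd2-/- cells the libraries gave 15.9, 19.6 and 16.4 CPM under placebo and 16.0, 21.3 and 24.0 CPM with the drug, and the groups overlapped. The pair values were -0.70, -0.58 and -0.49 against 0.01, 0.12 and 0.55, and the difference was 0.83 ± 0.21 with an adjusted p of 0.953 in edgeR. Pdzk1ip1 (NM_001164557, mm9 chr4:114761313-114766499), a small membrane protein of stem cells, was at 223, 161 and 167 CPM under placebo and at 152, 124 and 137 CPM with the drug in wild-type cells. Pdzk1ip1 in Fancd2-/- cells was at 133, 122 and 108 CPM under placebo and at 133, 124 and 106 CPM with the drug. All wild-type pairs were thus lower with the drug and no Fancd2-/- pair moved by more than 0.03, with a difference of 0.41 ± 0.15. Procr, the endothelial protein C receptor used to mark stem cells, had the same form, with -0.31, -0.34 and -0.29 in wild-type and -0.04, 0.08 and -0.05 in Fancd2-/- cells.

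The homeobox gene Hoxb5, a marker of long-term stem cells, had pair values of -0.14, -0.48 and -0.27 in wild-type and 0.30, 0.64 and 0.04 in Fancd2-/- cells. Its neighbour Hoxb4 gave -0.21, 0.01 and -0.16 against 0.06, 0.45 and 0.69. Their differences were 0.62 ± 0.26 and 0.53 ± 0.21. Esam, a cell adhesion molecule of stem cells, gave -0.08, -0.28 and -0.21 against 0.09, 0.07 and 0.12, and Hlf, a transcription factor of stem cells, 0.06, -0.003 and -0.16 against 0.11, 0.18 and 0.55. Mecom, Meis1, Prdm16 and Gata2 were among the 17 members that overlapped. Cd48, a SLAM family protein present on progenitors and absent from most long-term stem cells, was lower in the Fancd2-/- pairs. Cd48 (NM_007649, mm9 chr1:173612186-173635388) was at 167, 162 and 132 CPM under placebo and at 206, 190.0 and 179 CPM with the drug in wild-type cells, and at 270.0, 292 and 340.0 CPM under placebo and 261, 284 and 232 CPM with the drug in Fancd2-/- cells. Every wild-type pair was higher with the drug, Fancd2-/- pairs 1 and 2 were nearly level at -0.04 and pair 3 gave -0.55, and the difference was -0.53 ± 0.18 with an adjusted p of 0.953 in edgeR.

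Among 18 inhibitors of the cell cycle and quiescence genes, the pair values of 1, Cdkn1c, were higher in Fancd2-/- without overlap. That is 5.56%, near the 4.39% of all genes, so the list as such does not stand out. Cdkn1c (NM_001161624, mm9 chr7:150644244-150646955) encodes p57, an inhibitor of cyclin-dependent kinases that keeps stem cells quiescent. It was at 47.3, 47.0 and 45.0 CPM under placebo and at 33.5, 37.8 and 34.5 CPM with the drug in wild-type cells. Fancd2-/- levels were 28.3, 26.2 and 26.6 CPM under placebo and 35.1, 29.3 and 25.9 CPM with the drug. The wild-type placebo libraries were above all others, and the wild-type libraries on oxymetholone reached down to the range of the Fancd2-/- ones. The difference was 0.54 ± 0.17, with an adjusted p of 0.953 in edgeR. The other inhibitors overlapped: Cdkn1a (p21) had pair values of 1.16, 0.53 and -0.18 in wild-type and 0.67, -0.08 and 0.09 in Fancd2-/- cells, and Cdkn1b (p27) had 0.55, 0.05 and -0.46 against -0.17, 0.11 and 0.82. The list as a whole had a median difference of 0.14, which was 0.05 without Fancd2-/- pair 3 and 0.002 without wild-type pair 3.

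**Figure D3:**
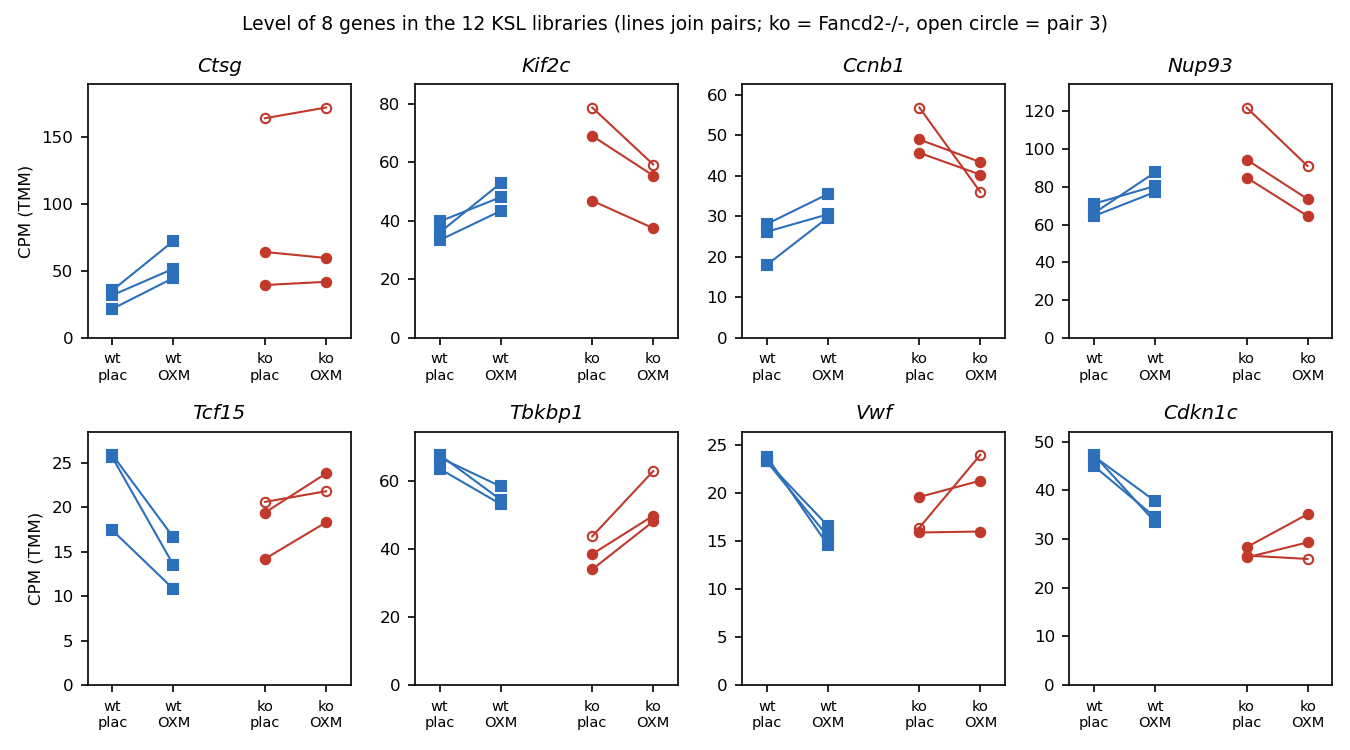
CPM of 8 genes in the 12 KSL libraries, with lines joining the placebo (plac) and oxymetholone (OXM) library of each pair (squares, wild-type, wt, circles, Fancd2-/-, ko, open circle, Fancd2-/- pair 3). In the upper row Ctsg, Kif2c, Ccnb1 and Nup93 go up in all 3 wild-type pairs, Vwf and Cdkn1c in the lower row go down in all 3, and the Fancd2-/- lines of Kif2c, Ccnb1, Nup93 and Tbkbp1 run against the wild-type ones.

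The gene with the smallest p was Ctsg (NM_007800, mm9 chr14:56718718-56721411), which encodes cathepsin G, a serine protease of the azurophil granules of neutrophils. It was at 31.8, 35.5 and 21.6 CPM under placebo and at 51.6, 72.3 and 44.7 CPM with the drug in wild-type cells, where the groups did not overlap. The Fancd2-/- libraries held 39.4, 64.1 and 164 CPM under placebo and 41.8, 59.6 and 172 CPM with the drug, with wide spread between the pairs and little change within them. The pair values were 0.70, 1.02 and 1.05 in wild-type and 0.09, -0.10 and 0.07 in Fancd2-/- cells. The difference was -0.90 ± 0.17, with an unadjusted p of 0.000142 and an adjusted p of 0.953 in edgeR, while DESeq2 gave an adjusted p of 0.00962. In wild-type cells alone the change was 0.92, with an adjusted p of 0.0565 in edgeR. The summed level of the 15 neutrophil granule genes was also higher with oxymetholone in each wild-type pair, at 1140, 1390 and 1100 CPM under placebo and 1550, 1880 and 1560 CPM with the drug. In Fancd2-/- cells the sums were 593, 1530 and 1220 CPM under placebo and 854, 772 and 2140 CPM with the drug, and their part in the Ctsg result was not tested. Mpo, the most abundant of them, gave 0.50, 0.49 and 0.53 in wild-type and 0.64, -0.94 and 1.06 in Fancd2-/- cells, so it overlapped, and the median member of the list was below 0 in each wild-type pair, at -0.10, -0.52 and -0.78, unlike the sum.

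Tcf15 (NM_009328, mm9 chr2:151969345-151974832) had the second smallest p and encodes a basic helix-loop-helix transcription factor known from the formation of somites. It was at 25.6, 25.9 and 17.4 CPM under placebo and at 13.5, 16.6 and 10.8 CPM with the drug in wild-type cells, each pair being lower with the drug. In Fancd2-/- cells the libraries gave 19.4, 14.2 and 20.6 CPM under placebo and 23.8, 18.3 and 21.8 CPM with the drug, each pair being higher. The difference was 0.999 ± 0.195, with an unadjusted p of 0.000209 and an adjusted p of 0.953 in edgeR and of 0.107 in DESeq2, and it was 0.903 to 1.079 with any 1 pair left out. Tbkbp1 (NM_198100, mm9 chr11:96997485-97011026) encodes an adaptor that binds the kinase TBK1. It was at 67.7, 66.9 and 63.6 CPM under placebo and at 54.5, 58.4 and 53.2 CPM with the drug in wild-type cells, and at 38.5, 34 and 43.7 CPM under placebo and 49.8, 48.1 and 62.9 CPM with the drug in Fancd2-/- cells. The groups were apart on placebo and interleaved on oxymetholone, and the difference was 0.72 ± 0.16 with an adjusted p of 0.953 in edgeR.

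Further named genes were higher in the Fancd2-/- pairs without overlap. Fgfr3, a fibroblast growth factor receptor, was at 9.80 ± 0.34 CPM (SD, n = 3) on placebo and 6.93 to 7.55 CPM with the drug in wild-type cells, and at 5.55 to 6.02 and 6.96 to 9.40 CPM in Fancd2-/- cells, so that placebo and drug libraries did not overlap in either genotype. Its difference was 0.84 ± 0.25. Sox18, a transcription factor of endothelial cells, had pair values of -0.33, -0.26 and -0.44 in wild-type and 0.31, 0.58 and 0.35 in Fancd2-/- cells, with a difference of 0.75 ± 0.23. Usp12, a deubiquitinase, gave -0.12, -0.31 and -0.61 against 0.63, 0.39 and 0.51, with a difference of 0.85 ± 0.26. Clcf1, a cytokine of the interleukin 6 family, Lama5, a laminin chain, and Alpk1, a kinase that senses bacterial sugars, had differences of 0.93 ± 0.28, 0.98 ± 0.30 and 0.96 ± 0.29, and Alpk1 was at 0.64 without Fancd2-/- pair 3. Spo11, the enzyme that cuts DNA in meiosis, Tnni3, cardiac troponin I, and BC005561 gave 1.18 ± 0.35, 0.90 ± 0.25 and 0.61 ± 0.17. Each of these genes had an adjusted p of 0.953 in edgeR. In the lower set, Mtap1b, a microtubule protein of neurons, had the widest difference of the named genes at -3.35 ± 0.98. It was at most 0.887 CPM in 11 libraries and far higher in the Fancd2-/- placebo library of pair 3, where the pair value was -4.56, and without that pair the difference was -1.55. Rasl2-9-ps, at -0.85 ± 0.25, is a copy related to Ran, and reads of the 2 genes may not be told apart.

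Of the genes that moved in opposite ways with no pair near 0, several were of low level. Tmem163, a zinc transporter, was at 1.81 to 2.24 CPM under placebo and 1.22 to 1.62 CPM with the drug in wild-type cells, and at 1.19 to 1.23 and 1.76 to 2.46 CPM in Fancd2-/- cells. The libraries on the 2 diets did not overlap in either genotype, and the difference was 1.23 ± 0.45. Sync, an intermediate filament protein of muscle, gave -0.26, -0.65 and -0.27 in wild-type and 0.93, 0.92 and 0.46 in Fancd2-/- cells. Prrt2, a synaptic protein, and Rtn2, a reticulon of the endoplasmic reticulum, had differences of 1.38 ± 0.44 and 1.12 ± 0.50, and Prrt2 was at 0.85 without Fancd2-/- pair 3. Gnai1, a subunit of an inhibitory G protein, gave 0.34, 0.39 and 0.39 in wild-type and -0.56, -0.35 and -1.06 in Fancd2-/- cells. Tmem144 gave 0.52, 0.38 and 0.63 against -0.96, -0.20 and -0.33, and Dtx4, a ubiquitin ligase of the Deltex family, 0.23, 0.18 and 0.69 against -0.22, -0.21 and -0.43. The adjusted p was 0.953 in edgeR for each of them.

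The respiratory chain and stress response lists had median differences below 0 that were smaller without Fancd2-/- pair 3. All 23 genes of the mitochondrial respiratory chain were below 0, with a median difference of -0.27, and the pair values of 4 (17.4%) were lower without overlap, against 4.36% of all genes. The median change was 0.04, -0.02 and -0.60 in the Fancd2-/- pairs and 0.02, 0.09 and 0.10 in the wild-type pairs, and the median difference was -0.11 without pair 3, where 4 genes (17.4%) were again lower, against 8.09% of all genes. Uqcrc2 and Sdha, subunits of complexes III and II, had differences of -0.35 ± 0.18 and -0.25 ± 0.15, and of -0.16 and -0.15 without that pair. The median was -0.17 for 20 genes of the integrated stress and unfolded protein response and -0.03 without pair 3. Its 3 genes lower without overlap (15.0%, against 4.36% of all genes) were Vldlr, Pdia4 and Atf6. Vldlr, a lipoprotein receptor, had a difference of -0.74 ± 0.24 and of -0.47 without that pair. For 19 genes of MYC and ribosome biogenesis the median was -0.14, and it was -0.05 without wild-type pair 3 and -0.08 without Fancd2-/- pair 3. Nolc1 and Nop56, nucleolar proteins, and Odc1, which starts polyamine synthesis, were lower (3 genes, 15.8%), and Mycn was higher (1 gene, 5.26%, against 4.39% of all genes). The differences of Nop56 and Odc1 were -0.32 and -0.48, and each was -0.15 without Fancd2-/- pair 3. Telomerase and shelterin genes, at -0.09 over 14 genes, and Fanconi pathway genes, at -0.13 over 19, had medians by pair that did not overlap while no single member was without overlap. The telomerase median was -0.06 without Fancd2-/- pair 1, and the Fanconi median was -0.06 without wild-type pair 3 and -0.07 without Fancd2-/- pair 3. Among heme genes, Fech, which inserts iron into the ring, gave 0.06, 0.09 and 0.05 in wild-type and -0.16, -0.16 and -0.29 in Fancd2-/- cells, while the list of 18 had a median difference of -0.03, which ranged from -0.09 without Fancd2-/- pair 1 to 0.01 without Fancd2-/- pair 2. Chromatin regulators stood at 0.25 over 22 genes and at 0.02 without Fancd2-/- pair 3. Cytosolic ribosomal protein genes stood at -0.10 over 30 genes and at 0.003 without it, and copies of these genes share reads.

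**Figure D4:**
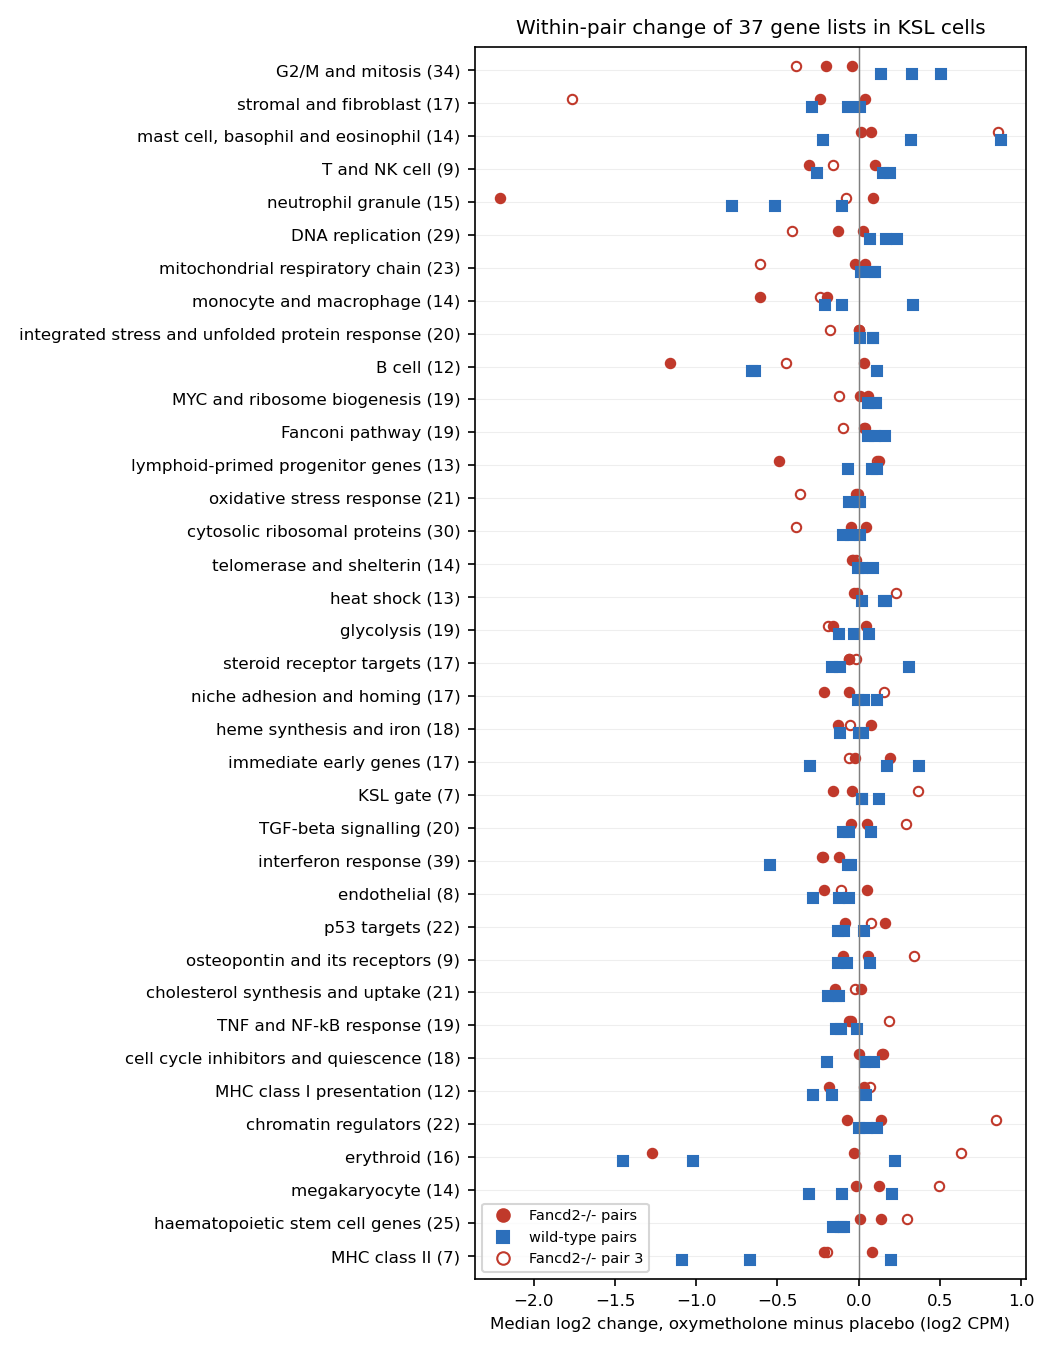
Median log2 change with oxymetholone of 37 gene lists in each KSL pair, with the number of genes tested in brackets, ordered by the median difference between the genotypes (circles, Fancd2-/- pairs, open circle, Fancd2-/- pair 3, squares, wild-type pairs). In 7 lists the circles and squares do not overlap, and in the mitosis list and the stem cell list they lie on opposite sides of 0.

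In all, 7 of the 37 lists had medians by pair that did not overlap between the genotypes, and 8.75% of single genes tested had pair values that did not overlap. Lower in Fancd2-/- were mitosis, DNA replication, telomerase and shelterin, the Fanconi pathway, the stress response and ribosome biogenesis, and higher were the stem cell genes. Some gaps were narrow. The closest medians were 0.003 in a Fancd2-/- pair and 0.008 in a wild-type pair for the stress response, and -0.014 and -0.002 for telomerase and shelterin. Whether the number of lists exceeds what unrelated values would give was not tested. Of 709 list entries, where a gene in several lists counts in each, 663 were tested, 39 had counts under the filter and 7 had a symbol that was not found. Removing a trend of level with transcript length within each library left the mitosis list at -0.51 with 21 genes lower, the replication list at -0.31 with 9, and the stem cell list at 0.22 with 7 higher. The respiratory chain list was then at -0.21 with 8 of 23 lower, and its medians by pair no longer overlapped. Those of the telomerase list (0.056 in Fancd2-/- pair 3, 0.003 in wild-type pair 2) and of the stress response list (0.026 in Fancd2-/- pair 2, 0.024 in wild-type pair 2) then overlapped. With that trend removed 5.59% of all genes were lower and 4.22% were higher without overlap. With any 1 pair left out, the mitosis median ranged from -0.61 to -0.43, the replication median from -0.41 to -0.18 and the stem cell median from 0.15 to 0.33.

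**Figure D5:**
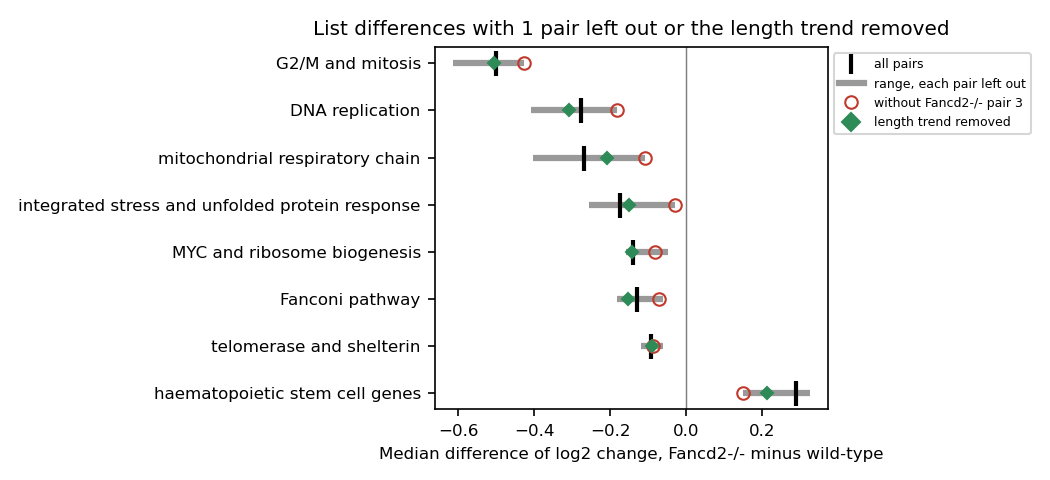
Median difference of 8 gene lists between the genotypes (log2) with all 6 pairs (black bar), its range with each pair left out in turn (grey line), without Fancd2-/- pair 3 (circle) and with the length trend removed (diamond). The mitosis list stays between -0.614 and -0.426, and the respiratory chain, replication and stem cell lists come closest to 0 without Fancd2-/- pair 3, at -0.109, -0.183 and 0.151.

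Immune genes overlapped for the most part. The interferon response list had a median difference of 0.05 over 39 genes, with medians of -0.12, -0.22 and -0.23 in the Fancd2-/- pairs and -0.06, -0.55 and -0.05 in the wild-type pairs. The median difference was -0.13 without wild-type pair 2 and 0.11 without wild-type pair 3. Cxcl10, a chemokine induced by interferon, was higher in Fancd2-/- without overlap although it was lower with the drug in all 6 pairs. It was at 8.26, 4.68 and 2.35 CPM under placebo and at 3.27, 0.966 and 0.961 CPM with the drug in wild-type cells, and at 3.92, 3.16 and 2.66 CPM under placebo and 1.64, 2.80 and 1.48 CPM with the drug in Fancd2-/- cells. The difference was 0.96 ± 0.43 with an adjusted p of 0.953 in edgeR, and 0.56 without wild-type pair 2. All 7 MHC class II genes had differences above 0, with a median of 0.43, and all overlapped. Their medians were -0.67, -1.09 and 0.20 in the wild-type pairs and 0.08, -0.22 and -0.20 in the Fancd2-/- pairs, and the median difference was 0.14 without wild-type pair 2 and 0.75 without wild-type pair 3. Of the TGF-beta list, Smad6 and Ski, both inhibitors of the pathway, were higher, with differences of 0.59 ± 0.27 and 0.45 ± 0.20, and of 0.36 and 0.23 without Fancd2-/- pair 3.

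Markers of other blood and marrow cells were set beside these results, and their part in them was not tested. Stromal and fibroblast genes, of which 17 of 26 passed the filter, summed to 877, 1090 and 1360 CPM in the Fancd2-/- placebo libraries, 887, 913 and 948 CPM in the libraries they were paired with, 769 to 811 CPM in wild-type placebo and 850.0 to 884 CPM in wild-type oxymetholone libraries. The median change of the list in Fancd2-/- pair 3 was -1.76, and between -0.29 and 0.04 in the other 5 pairs. In Fancd2-/- pair 2 the neutrophil granule list had a median change of -2.21 and none of its 15 genes was above 0. Erythroid medians swung in both genotypes, at -0.03, -1.27 and 0.63 in the Fancd2-/- pairs and -1.45, 0.22 and -1.02 in the wild-type pairs. Vim and Fbn1 of the stromal list, an intermediate filament and a matrix protein, were lower in Fancd2-/- without overlap, with differences of -0.30 ± 0.15 and -0.52 ± 0.35. Ccr2, a chemokine receptor of monocytes, was lower too, at -0.74 ± 0.23, and Car1, an erythroid carbonic anhydrase, higher, at 1.61 ± 0.54 and at 0.84 without wild-type pair 1. Monocyte and macrophage genes summed to 334 to 462 CPM over the 12 libraries, B cell genes to 74.5 to 116 CPM, and T and NK cell genes to 205 to 379 CPM. Of the T and NK cell list, Cd3d, Cd3e, Cd3g, Cd8a, Cd8b1, Gzma and Klrd1 were under the filter. Erythroid genes summed to 909 to 1790 CPM, megakaryocyte genes to 611 to 1200 CPM, mast cell, basophil and eosinophil genes to 804 to 1240 CPM and endothelial genes to 686 to 898 CPM. Megakaryocyte sums were 1030, 1080 and 1200 CPM in wild-type placebo libraries and 980, 1090 and 1060 CPM with the drug, and 821, 799 and 611 CPM against 874, 766 and 874 CPM in Fancd2-/- cells, beside the values of Vwf.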

How the data were processed

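RNA was sequenced as 51 base reads from pools of sorted cells. The authors mapped reads to mm9 with Bowtie, per the series design text and the submitters' processing notes, which also name edgeR; the sources used here do not give versions or the counting step. Values were taken from the deposited matrix of unnormalised whole-number counts, with 26005 transcript rows, 20377 gene symbols and 20 libraries, of which the 12 KSL libraries entered. A second deposited matrix, treated as a score because the authors scaled every library to about one total and rounded, served as an alternative. For each symbol the row with the largest total was kept.

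Genes were filtered with filterByExpr (13259 left), scaled with TMM and fitted with edgeR 4.0.16 in R 4.3.3 (quasi-likelihood, robust, Benjamini-Hochberg adjustment, threshold 0.05), with the pair as a block and the drug effect in each genotype. The common biological coefficient of variation was 0.148. Pair values are log2 CPM with a prior count of 2. limma 3.58.1 and DESeq2 1.42.0 were alternatives, as were other scaling, filters, prior counts, transcript sums, removal of a length trend and leaving out each pair. The fit was tested on simulated data.

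Pairs come from the design text, which says that the flow cytometer setting was kept within a pair. The correlation of deviations between partners was 0.134, -0.061 and 0.214 in Fancd2-/- and 0.114, 0.258 and 0.131 in wild-type pairs. The oxymetholone library of Fancd2-/- pair 2 had a higher value, 0.263, with a placebo library of another Fancd2-/- pair. In every other pair the partner gave the highest value, in wild-type pair 1 by a narrow margin, at 0.114 against 0.091.

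Genes with a mean of at least 1 CPM and pair values without overlap were named as follows: in each direction the 12 smallest p-values, the 8 per direction that moved opposite ways with the largest smallest pair value, and up to 4 per list. Fancd2 and Spp1 were followed regardless. A result that this rule would name is not reported here. The genes and the 37 lists were chosen with earlier results of these data known. Each library is a pool of mice and the pair is a block, so the p-values of the main fit measure the spread of the within-pair changes between pairs of pools. Erythroblast and whole marrow libraries were not used here. Promoters are from RefSeq (GRCm38.p6), while gene positions are in mm9 as deposited.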

Additional observations from a re-analysis of the deposited data

Results flagged for a closer look

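In the genes named here every Fancd2-/- pair moved one way with oxymetholone and every wild-type pair the opposite way. None was called by the test of the difference, with adjusted p of 0.953 in edgeR for each, and the values are Fancd2-/- minus wild-type log2 changes.

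Cell division and replication genes all lay below 0, with Ccnb1 at -0.77, Cdc25c at -0.71, Ube2c at -0.76, Cenpa at -0.57, Kif2c at -0.75, Cdca5 at -0.57, D2Ertd750e at -0.57, Arhgap19 at -0.65 and Mcm5 at -0.47. Of stem and progenitor genes, the values were Vwf at 0.83, Hoxb5 at 0.62, Tcf15 at 0.999 and Cd48 at -0.53. Genes of metabolism, stress and signalling gave Fech at -0.27, Hk2 at 0.53, Hspa8 at -0.17, Mycn at 0.35, Nolc1 at -0.27, Sdha at -0.25, Uqcrc2 at -0.35, Vldlr at -0.74 and Smad6 at 0.59; Hk2 was at 0.32, Sdha at -0.15, Uqcrc2 at -0.16, Vldlr at -0.47 and Smad6 at 0.36 without Fancd2-/- pair 3, and Mycn at 0.21 without wild-type pair 1.

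Further genes were higher in the Fancd2-/- pairs, with Alpk1 at 0.96, Clcf1 at 0.93, D17H6S53E at 0.99, Fgfr3 at 0.84, Lama5 at 0.98, Prrt2 at 1.38, Rtn2 at 1.12, Sox18 at 0.75, Sync at 1.22, Tbkbp1 at 0.72, Tmem163 at 1.23 and Usp12 at 0.85. Others were lower, with Dtx4 at -0.65, Dynlt1b at -0.59, Gnai1 at -1.08, Mtap1b at -3.35, Nup93 at -0.68, Rasl2-9-ps at -0.85 and Tmem144 at -0.97. Without Fancd2-/- pair 3, Alpk1 was at 0.64, Prrt2 at 0.85 and Mtap1b at -1.55. Dynlt1b is one of several near-identical neighbouring copies, so its counts are uncertain.

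The median of the mitosis list differed by -0.50 and that of the stem cell list by 0.29, each with the 3 pair medians of one genotype on one side of 0 and the 3 of the other genotype on the opposite side. The difference of the list medians was not tested.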

How the results depend on the processing

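The count of called genes for the difference between genotypes was 0 in edgeR, 1 in DESeq2 (Ctsg) and 1 with the transcripts of a gene summed (Il33, named after its values were seen), and 0 to 0 with any 1 pair left out. Without the pair as a block it was also 0, with 270 genes at an unadjusted p under 0.05 and a smallest adjusted p of 0.999 in edgeR, so the pairing changed no call. For oxymetholone in Fancd2-/- cells the count was 16 without the low-count filter, 1 in limma voom, 1 with summed transcripts and 0 to 13 with a pair left out: 0 without Fancd2-/- pair 3 and 13 without wild-type pair 2. Of the 31 genes called there under any alternative, 29 were highest in the Fancd2-/- placebo library of pair 3. Some of the 29 were also read in the wild-type placebo library of pair 1. Msln, Mmp3 and Prkg2 had 757, 677 and 365 counts in the first library, 48, 46 and 35 in the second and 0 in all others. Not all had this form: the next highest count of Fn1, 259, was in the Fancd2-/- oxymetholone library of pair 3. These genes were chosen after their values were seen. In wild-type cells it was 1 with median-of-ratios size factors, 1 without the filter, 4 in DESeq2 (Ctsg, Cxcl10, Iigp1 and Tcf15), 1 on the scaled matrix and 0 to 1 with a pair left out. At a mean of at least 10 CPM the higher genes without overlap were 365 and those up in Fancd2-/- and down in wild-type 89, and on the scaled matrix those down in Fancd2-/- and up in wild-type were 121. Of 825 alternatives of the named genes 824 kept the sign. The exception was Spp1, from -1.12 with all pairs to 0.618 without Fancd2-/- pair 3, with a range of -2.986 to 0.618 over pairs left out. Of 407 alternatives of the lists, 21 moved by more than the spread between pairs. The cause of these shifts was not tested. Fancd2-/- pair 3 has 32141271 counts on placebo and 112579150 on oxymetholone, and genes at the lowest levels are limited by depth.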

Other observations

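Steroid receptor targets, the list nearest to the action of an androgen, overlapped between the genotypes, with a median difference of -0.06 over 17 genes and none of them without overlap. Their medians were 0.31, -0.11 and -0.17 in the wild-type pairs and -0.06, -0.06 and -0.02 in the Fancd2-/- pairs, and the median difference was 0.07 without wild-type pair 1. Osteopontin and its receptors stood at 0.11 over 9 genes and at -0.07 without Fancd2-/- pair 3 and 0.27 without Fancd2-/- pair 2. Genes of niche adhesion and homing stood at -0.06 over 17, at 0.04 without wild-type pair 1 and at -0.14 without Fancd2-/- pair 1. Lymphoid-primed progenitor genes stood at -0.13 over 13, at 0.19 without Fancd2-/- pair 2 and at -0.23 without Fancd2-/- pair 3.

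Cholesterol genes were lower with the drug in each wild-type pair, with medians of -0.12, -0.19 and -0.14, and 18 of 21 had a difference above 0 with a median of 0.12, which was 0.06 without wild-type pair 2. Sc4mol, an enzyme of that pathway, was higher in Fancd2-/- without overlap, at 0.41 ± 0.18, and at 0.27 without Fancd2-/- pair 2. The p53 targets had a median difference of 0.06 over 22 genes, which was -0.085 without Fancd2-/- pair 2 and 0.13 without Fancd2-/- pair 1. For 19 genes of the TNF and NF-kB response it was 0.13, with 0.08 without Fancd2-/- pair 3 and 0.23 without wild-type pair 2. Immediate early genes stood at 0.001 over 17, at -0.365 without wild-type pair 3 and at 0.15 without wild-type pair 1. Oxidative stress genes, at -0.11 over 21, were at -0.008 without Fancd2-/- pair 3 and at -0.17 without pair 1. Glycolysis genes, at -0.07 over 19, were at -0.01 without Fancd2-/- pair 3 and at -0.16 without pair 1. Heat shock genes, at -0.08 over 13, were at 0.05 without Fancd2-/- pair 1 and at -0.225 without wild-type pair 3. For 12 genes of MHC class I presentation the median was 0.17, with 0.06 without wild-type pair 2 and 0.08 without Fancd2-/- pair 3. Relb, a subunit of NF-kB, was higher at 0.32 ± 0.19, and Gtse1, which restrains p53, was lower at -0.37 ± 0.21 and at -0.19 without Fancd2-/- pair 2. Nlrc5, the activator of MHC class I genes, was higher at 0.42 ± 0.19 and at 0.23 without wild-type pair 2. Each of these single genes had an adjusted p of 0.953 in edgeR.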
